A study of Mus musculus with 6 samples.

Results

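The genes described here make up the MHC class I antigen processing pathway, and were chosen by name as the rows of *H2-K1*, *H2-D1*, *B2m*, *Tap1*, *Tap2*, *Tapbp*, *Psmb8*, *Psmb9*, *Psmb10* and *Nlrc5*. All 10 are among the 57180 genes of the deposited table, and all 10 were among the 13428 tested after the filter on low counts. RNA was sequenced from bone marrow-derived macrophages (BMDMs) of wild-type (WT) C57BL/6 mice and of *lincRNA-EPS* knockout (KO) mice, with 3 libraries of each genotype, described by the submitters as biologically independent. Every culture received M-CSF, a macrophage growth factor, at 40 ng/ml for 24 h, and 40 ng/ml of RANKL, the cytokine that starts osteoclast differentiation, was then added for 48 h, which makes the cells osteoclast precursors (OCPs). Neither LPS nor interferon was named for these cultures, and the age of the donor mice and the number of mice behind a culture are not given in the sources used here. The KO is carried by the whole animal, so effects in the macrophage and effects acquired in the mouse cannot be told apart.

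Class I molecules carry short peptides from inside the cell to its surface, where CD8 T cells read them. Proteins are cut by the proteasome, which in many immune cells holds the inducible subunits encoded by *Psmb8*, *Psmb9* and *Psmb10* in place of those encoded by *Psmb5*, *Psmb6* and *Psmb7*. The peptides are pumped into the endoplasmic reticulum by the transporter built from TAP1 and TAP2. There tapasin, encoded by *Tapbp*, holds an empty class I molecule next to the transporter until a peptide binds. The class I molecule itself is a heavy chain, encoded in C57BL/6 mice by *H2-K1* or *H2-D1*, with β2-microglobulin, encoded by *B2m*, as its light chain. NLRC5 is a transcriptional activator of many of these genes and works through a promoter module, the SXY module, to which it is brought by DNA-binding factors of the RFX, CREB and NF-Y families. Macrophages express the whole pathway.

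The libraries held 17757351 to 19998611 estimated counts. Normalized counts below are CPM, counts relative to the scaled size of the library, and log2FC is the log2 fold change of KO over WT. LincRNA-EPS, listed as *Ttc39aos1*, was counted 20, 37 and 41 times in WT replicates 1, 2 and 3 and not once in the 3 KO libraries. The 6 macrophage markers *Csf1r*, *Adgre1*, *Itgam*, *Cd68*, *Lyz2* and *Fcgr1* were all present, with a summed level, mostly *Lyz2*, of 16333 to 17492 normalized counts in WT and 14742 to 17536 in KO. Of these, 3 were lower in KO at an unadjusted p-value under 0.05 and none higher, where 13.2% of all genes were lower and 13% higher: *Fcgr1* (log2FC -0.64, and -0.56 with the GC correction described below), *Adgre1* (-0.29 and -0.36) and *Itgam* (-0.25 and -0.26). The other 3 had log2FC values of -0.27 and -0.11 (*Csf1r*), -0.0035 and 0.12 (*Cd68*) and -0.046 and -0.080 (*Lyz2*). The 8 osteoclast markers summed to 2411 to 2589 in WT and to 3677 to 3915 in KO, so that the KO cultures were all above the WT cultures. Transcript GC content also separated the libraries. The correlation across 13176 genes, which are not independent replicates, between GC content and the deviation of a library from the mean of all libraries was 0.56 in WT replicate 2, 0.23 in WT replicate 3, 0.19 in WT replicate 1, 0.05 in KO replicate 1, -0.10 in KO replicate 2 and -0.61 in KO replicate 3. Most of the 10 genes are GC-rich, with *H2-K1*, *H2-D1*, *Tap1*, *Tap2*, *Tapbp*, *Psmb9* and *Psmb10* at percentiles from 75.1 to 88.6 of GC content, while *B2m* is at percentile 11.2. Changes were therefore also computed after a correction of every library for GC content. The correlation was higher in every WT library than in any KO library. Across the same genes the uncorrected log2FC correlated with GC content at r = -0.51. The correction was fitted without regard to genotype and also takes out any genotype effect that follows GC content. Such an effect and a GC trend of the libraries cannot be told apart here.

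Of the 10 genes, 4 were lower in KO at an unadjusted p-value under 0.05, and they came from 3 steps of the pathway: the activator *Nlrc5*, the heavy chains *H2-K1* and *H2-D1*, and tapasin. None of the 10 was higher at that limit. Among all genes tested 13.2% were lower and 13% were higher at the same limit in edgeR's quasi-likelihood test. The median log2 fold change was -0.26 over the 10 genes and 0.0092 over all genes, and -0.13 and -0.0060 with the GC correction. None of the 10 passed an adjusted p-value of 0.01 with a fold change above 1.3, limits that 0.00745% of all genes passed as lower and 0% as higher. In KO libraries 5 of the 10, the 4 above and *Tap1*, lay entirely below the WT libraries, as did 18.8% of all genes. After the GC correction 3 genes were lower (*Nlrc5*, *H2-D1* and *H2-K1*) and 1 was higher (*Tap2*) at an unadjusted p-value under 0.05, where 13.8% of all genes were lower and 12% higher. In the corrected values 3 of the 10 lay entirely below WT and 1 entirely above, as did 17.5% and 14.7% of all genes. None of the 10 passed both limits in that fit, as 0.0149% of all genes did as lower. In DESeq2, 4 of the 10 were lower at an adjusted p-value under 0.05 (2.85% of all genes), and 3 with the GC correction (5.45%). In RNA from whole cultures, fewer cells of a type and less RNA per cell cannot be told apart.

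**Figure D1:**
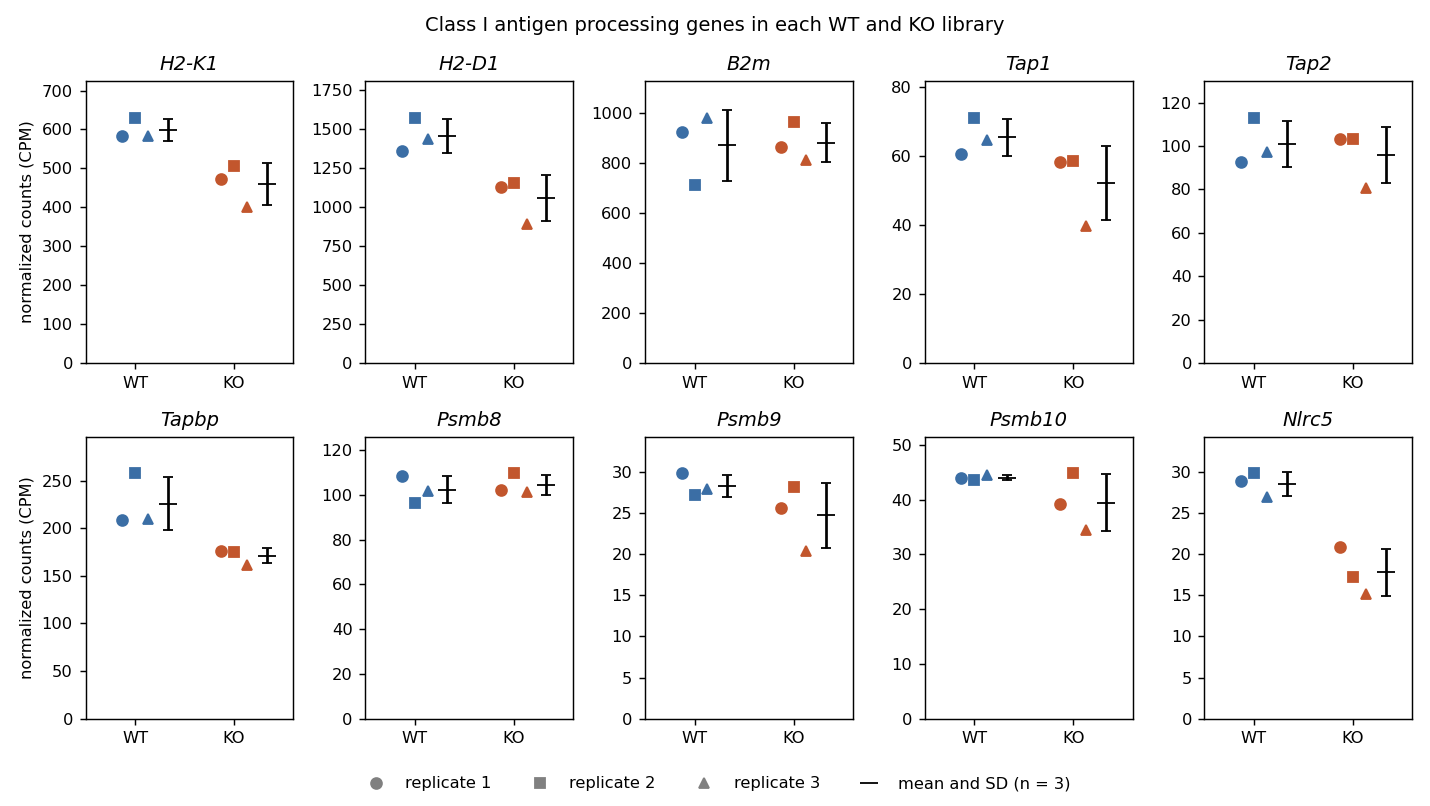
Normalized counts (CPM, linear axis from 0) of each of the 10 genes in the 3 WT and 3 KO libraries, with symbols for the replicate number and the mean and SD beside each group. The KO libraries lie below all WT libraries for *H2-K1*, *H2-D1*, *Tap1*, *Tapbp* and *Nlrc5*, and the groups overlap for the other 5 genes.

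*Nlrc5* (ENSMUSG00000074151), the activator, had the lowest log2FC of the 10. It had 28.9, 29.9 and 27.0 normalized counts in WT replicates 1, 2 and 3 and 20.9, 17.3 and 15.2 in KO replicates 1, 2 and 3. Every KO library was below every WT library, and the gap between the groups exceeded the range within either one. The means were 28.6 ± 1.45 in WT and 17.8 ± 2.89 in KO (mean ± SD of 3 libraries each), so that WT was 1.61-fold higher. The log2FC, KO over WT, was -0.68 ± 0.14 (SE; edgeR, unadjusted p = 0.000739, adjusted p = 0.141), and *Nlrc5* ranked 68 by p-value among the genes tested. The GC correction left it at -0.58 (standard error 0.10, adjusted p = 0.0431, edgeR), one of the 0.529% of genes lower at an adjusted p-value under 0.05 in that fit. DESeq2 placed *Nlrc5* past both limits without the GC correction (adjusted p = 0.00303, with 0.514% of genes lower and 0.447% higher past the limits) and with it (adjusted p = 0.00049, with 1.53% lower and 1.67% higher). With each library left out in turn, its log2 fold change stayed between -0.81 and -0.58, with an unadjusted p of at most 0.00453 in edgeR's test. *Nlrc5* shares 78 exonic bases, 0.918% of its own, with *9330175E14Rik* on the opposite strand in the GRCm38 annotation.

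*H2-K1* and *H2-D1* encode the classical heavy chains, and their promoters are shown, with that of *B2m*, because their windows hold letters of the X2 and Y elements of the SXY module. RefSeq windows of 250 bases before to 50 bases after the start, on GRCm38.p6, were found for 8 of the 10 genes, all but *Tap2* and *Nlrc5*. The counts were made on GRCm39 according to the submitters' processing notes, so the positions belong to the sequence table and not to the counts. Capitals mark an NF-κB palindrome (the first capitals of *H2-K1* and *H2-D1*), an interferon regulatory factor core (GAANNGAAA on either strand, and in *B2m* a longer form, its first capitals), the letters TGACG of the X2 element and the letters ATTGG of the Y box.
*H2-K1*, chr17:34000354-34000463, minus strand: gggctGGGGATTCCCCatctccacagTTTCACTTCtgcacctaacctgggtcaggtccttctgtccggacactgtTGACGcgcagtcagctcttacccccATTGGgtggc
*H2-D1*, chr17:35262918-35263027, plus strand: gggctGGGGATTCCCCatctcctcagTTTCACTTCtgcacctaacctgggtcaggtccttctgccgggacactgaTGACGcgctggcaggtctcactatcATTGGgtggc
*B2m*, chr2:122147543-122147643, plus strand: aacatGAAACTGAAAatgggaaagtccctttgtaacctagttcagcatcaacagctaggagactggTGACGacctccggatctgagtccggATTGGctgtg
In all 3 genes exactly 20 bases separate TGACG from ATTGG. Among 32851 windows of all genes, 0.0944% hold the pair at this distance and 0.268% at 18 to 22 bases. Searched on both strands, the NF-κB palindrome was in 0.0304% of all windows, GAANNGAAA in 7.52%, the longer form in 3.44%, TGACG in 20.8% and CCAAT, the Y box read on the other strand, in 37.4%. The *H2-K1* table lists 2 starts, and its windows were 89.5% and 88.9% identical to that of *H2-D1* over the aligned bases. The windows of *Tap1*, *Tapbp*, *Psmb8*, *Psmb9* and *Psmb10* did not hold the pair. The motifs were chosen after these promoter sequences were read, so the shares of all windows beside them are no test. A match of letters is a description and not a bound site.

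Both heavy chain genes were lower in KO. *H2-D1* (ENSMUSG00000073411) had 1357, 1569 and 1433 normalized counts in WT replicates 1, 2 and 3 and 1130, 1155 and 888 in KO replicates 1, 2 and 3. *H2-K1* (ENSMUSG00000061232) had 583, 630 and 582 in WT and 474, 506 and 401 in KO, in the same order. For both genes the groups did not overlap, WT replicate 2 was the highest library and KO replicate 3 the lowest. The mean of *H2-D1* was 1453 ± 108 in WT and 1057 ± 147 in KO (mean ± SD per genotype), log2FC = -0.46 ± 0.13 (SE; unadjusted p = 0.00587, adjusted p = 0.147, edgeR). That of *H2-K1* was 598 ± 27.4 and 460 ± 53.5, log2FC = -0.38 ± 0.11 (SE; unadjusted p = 0.00733, adjusted p = 0.147, edgeR). The KO level was thus 0.728 of WT for *H2-D1* and 0.769 for *H2-K1*. The GC correction drew the libraries of each genotype together and kept the groups apart. *H2-D1* then had 1350 ± 31.4 normalized counts in WT libraries and 1129 ± 37.9 in KO, and *H2-K1* 566 ± 3.56 and 484 ± 24.4 (SD, n = 3 each). Their log2 fold changes became -0.26 (standard error 0.071, unadjusted p = 0.00513) and -0.23 (standard error 0.066, unadjusted p = 0.00718), with adjusted p = 0.0859 and 0.0927 from edgeR. Both genes stayed at an unadjusted p-value under 0.05 in all 17 alternatives.

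The heavy chain genes are near copies of each other and of other H2 genes, so the counting may have split reads between them. *H2-D1* had values that were not whole in 6 of 6 libraries and *H2-K1* in 4. Summed over *H2-K1*, *H2-D1* and the 14 H2 genes of the non-classical list, a sum added after the values were seen and free of such a split among them, the level was 2094, 2366 and 2179 normalized counts in WT libraries and 1747, 1807 and 1416 in KO. *H2-K1* and *H2-D1* made up 92.2% of it. The summed log2 level was 0.42 lower in KO than in WT, the groups did not overlap, and the two-sided exact permutation test gave p = 0.1, the smallest that 3 libraries against 3 allow. On GC-corrected values the sum was 2072 ± 32.8 in WT and 1757 ± 64.7 in KO libraries (SD over 3 of each genotype).

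*B2m* (ENSMUSG00000060802) encodes the light chain. It had 924, 712 and 981 normalized counts in WT libraries and 866, 966 and 814 in KO replicates 1, 2 and 3. The groups overlapped, with WT replicate 2 below all other libraries. The means were 872 ± 142 and 882 ± 77.5 (mean ± SD per genotype), log2FC = 0.016 ± 0.14 (SE; adjusted p = 0.948, edgeR). *B2m* was at the opposite end of GC content from the heavy chains, and the GC correction brought it to -0.20 (standard error 0.13, unadjusted p = 0.162, edgeR). Without WT replicate 2 and without the correction it was -0.11. The log2 ratio of *H2-K1* plus *H2-D1* to *B2m* was 1.07, 1.63 and 1.04 in WT and 0.89, 0.78 and 0.66 in KO replicates 1, 2 and 3. It was 0.47 lower in KO with no overlap (exact permutation test, two-sided, p = 0.1, and 0.125 when adjusted over 5 ratios). Without WT replicate 2 the difference was -0.28. After the GC correction the ratio was 1.03 ± 0.12 in WT and 1.00 ± 0.25 in KO libraries (SD over 3 of each genotype), a difference of -0.033 (exact permutation test, two-sided, p = 0.9).

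**Figure D2:**
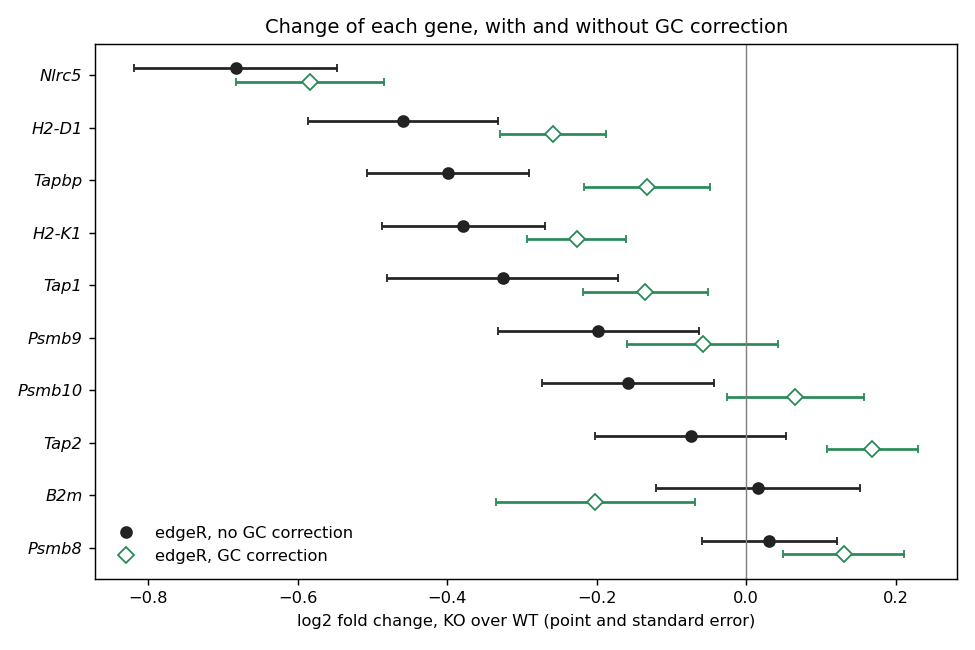
Log2 fold change of KO over WT with its standard error for each of the 10 genes, from edgeR without (filled circles) and with (open diamonds) correction for GC content, on 3 WT and 3 KO libraries. *Nlrc5* stays farthest from 0 in both, *H2-D1* and *H2-K1* shrink to -0.26 and -0.23, *Tapbp* to -0.13, and *Tap2* moves to 0.17.

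Peptides are loaded with the help of tapasin and the transporter. *Tapbp* (ENSMUSG00000024308) had 209, 258 and 210 normalized counts in WT libraries and 176, 175 and 162 in KO replicates 1, 2 and 3. The KO libraries were all lower, and the spread in WT came from replicate 2. The means were 225 ± 27.8 in WT and 171 ± 8.10 in KO (mean ± SD per genotype), log2FC = -0.40 ± 0.11 (SE; unadjusted p = 0.00527, adjusted p = 0.147, edgeR). *Tapbp* has the highest GC content of the 10, at percentile 88.6, and after the GC correction its libraries overlapped. Its log2FC was then -0.13 ± 0.084 (SE; unadjusted p = 0.148, edgeR). *Tapbp* had values that were not whole in 6 of 6 libraries, and shares 904 exonic bases with *Gm19412* on the opposite strand and 149 with *Zbtb22* on the same strand.

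*Tap1* and *Tap2* encode the subunits of the transporter. *Tap1* (ENSMUSG00000037321) had 60.6, 71.1 and 64.6 normalized counts in WT libraries and 58.2, 58.6 and 39.8 in KO replicates 1, 2 and 3. All KO libraries were lower, but replicates 1 and 2 only by a few counts. Its log2FC was -0.33 ± 0.15 (SE; unadjusted p = 0.0649, adjusted p = 0.210, edgeR), and -0.14 with the GC correction (standard error 0.084, unadjusted p = 0.141). Without KO replicate 3 and without the correction it was -0.16. *Tap2* (ENSMUSG00000024339) had 92.7, 113 and 97.0 in WT and 103, 103 and 80.8 in KO, and these groups overlapped. Its log2FC was -0.074 ± 0.13 (SE; adjusted p = 0.724, edgeR). With the GC correction *Tap2* was higher in KO at 0.17 (standard error 0.061, unadjusted p = 0.0218, adjusted p = 0.134, edgeR), and its KO libraries were then all above WT. *Tap2* shares 533 exonic bases with *Gm15821* and 165 with *Gm20496*, both on the opposite strand. The log2 ratio of *Tap1* to *Tap2* was -0.61, -0.67 and -0.59 in WT and -0.83, -0.82 and -1.02 in KO. It was lower in KO by 0.27 without the correction and by 0.31 with it, and no library overlapped the other group in the uncorrected values (exact permutation test, two-sided, p = 0.1 for each, and 0.125 adjusted over 5 ratios for the first). Of the 5 ratios examined, this one moved least with the correction.

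*Tap1* and *Psmb9* lie head to head, with RefSeq starts 226 bases apart on GRCm38.p6. The stretch between these starts is shown because it lies upstream of both of them. Capitals mark CCAAT, close to the *Psmb9* start, and TGACG, farther towards *Tap1*.
Between *Psmb9* and *Tap1*, chr17:34187331-34187555, plus strand: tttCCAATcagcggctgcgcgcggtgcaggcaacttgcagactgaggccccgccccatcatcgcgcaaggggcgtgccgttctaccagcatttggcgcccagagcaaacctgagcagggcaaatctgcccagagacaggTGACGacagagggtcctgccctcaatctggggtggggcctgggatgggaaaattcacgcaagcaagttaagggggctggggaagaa
*Psmb9* (ENSMUSG00000096727), whose product replaces that of *Psmb6*, had 29.9, 27.2 and 28.0 normalized counts in WT libraries and 25.6, 28.1 and 20.4 in KO replicates 1, 2 and 3. The groups overlapped through KO replicate 2. Its log2FC was -0.20 ± 0.13 (SE; unadjusted p = 0.176, edgeR) and -0.058 with the GC correction, against -0.33 and -0.14 for *Tap1*. It was -0.076 without KO replicate 3 and -0.30 without KO replicate 2. In the GENCODE annotation the exons of the 2 genes share 212 bases on opposite strands, so transcripts there reach past the RefSeq starts used here.

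The other inducible proteasome subunits showed no difference beyond their spread. *Psmb8* (ENSMUSG00000024338), which takes the place of *Psmb5*, had 108, 96.5 and 102 normalized counts in WT libraries and 102, 110 and 101 in KO replicates 1, 2 and 3. Its log2FC was 0.031 ± 0.091 (SE; adjusted p = 0.843, edgeR) and 0.13 with the GC correction (unadjusted p = 0.141). *Psmb8* shares 498 exonic bases with *Gm20496* on the opposite strand. *Psmb10* (ENSMUSG00000031897), which takes the place of *Psmb7*, had 43.9, 43.6 and 44.5 in WT and 39.1, 44.8 and 34.4 in KO. The WT libraries lay close together and the KO libraries spread to both sides of them. The log2 fold change of *Psmb10* was -0.16 (standard error 0.12, adjusted p = 0.389, edgeR) and 0.066 with the GC correction. Uncorrected, it was -0.068 without KO replicate 3 and -0.26 without KO replicate 2.

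Each inducible subunit was also set against the subunit it replaces within the same library. The log2 ratio of *Psmb10* to *Psmb7* was -1.88, -1.56 and -1.77 in WT and -2.20, -2.29 and -2.57 in KO replicates 1, 2 and 3. It was lower in KO by 0.62 with no overlap, with log2 fold changes of -0.16 for *Psmb10* and 0.45 for *Psmb7*, which had 148 ± 17.1 normalized counts in WT libraries and 201 ± 20.2 in KO libraries (SD over 3 of each genotype). *Psmb7* is at the low percentile 9.90 of GC content, and the correction reduced the difference of the ratio to -0.13 (exact permutation test, two-sided, p = 0.4 with it and p = 0.1 without). The log2 ratio of *Psmb9* to *Psmb6* was -2.68, -2.62 and -2.82 in WT and -2.92, -2.86 and -3.27 in KO. It was lower in KO by 0.31, and by 0.23 after the correction (exact permutation test, two-sided, p = 0.1 for each). Without KO replicate 3 the uncorrected difference was -0.18. The ratio of *Psmb8* to *Psmb5* overlapped between the genotypes, with a difference of 0.14 (exact permutation test, two-sided, p = 0.8), and KO replicate 3 alone made it positive, since without that library it was -0.047. Adjusted over the 5 ratios, the p of the 4 that did not overlap was 0.125.

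**Figure D3:**
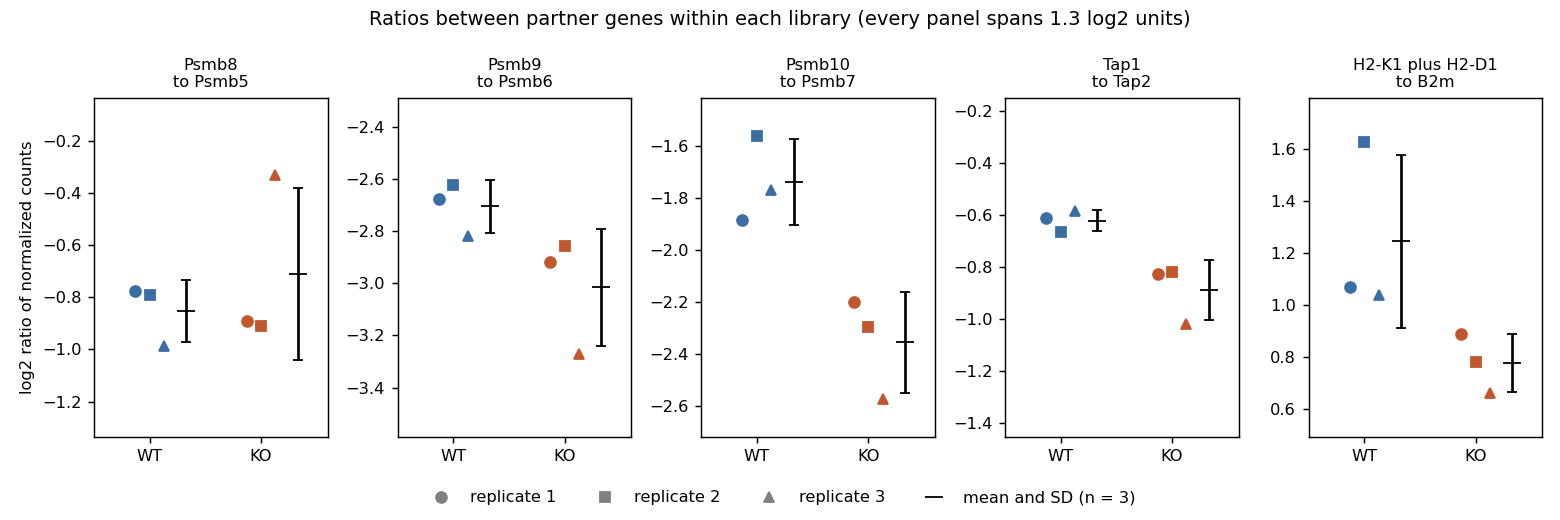
Log2 ratio of normalized counts between partner genes in each library, with symbols for the replicate number and the mean and SD beside each group (3 WT and 3 KO libraries, all panels to the same scale). The KO libraries lie below the WT libraries in 4 of the 5 panels, and the genotypes overlap for *Psmb8* to *Psmb5*, where KO replicate 3 is the highest library.

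The levels of the 10 genes spanned a wide range. Per kilobase of the longest annotated transcript, *B2m* had 1020 CPM per kb as a mean of the 6 libraries and was number 35 of 13176 genes with a length. *H2-D1* followed with 597 and *H2-K1* with 282 CPM per kb, at numbers 84 and 204. The order then ran from *Tapbp* (68.4) and *Psmb8* (54.2) to *Psmb10* (31.8), *Tap2* (28.6), *Tap1* (15.0), *Psmb9* (9.20) and *Nlrc5* (3.06 CPM per kb). The ranges over the 6 libraries overlapped for *Tapbp* and *Psmb8*, for *Psmb10* and *Tap2*, and for *Tap1* and *Psmb9*. Within every single library *Tapbp* was above *Psmb8* and *Tap1* above *Psmb9*. *Psmb10* was above *Tap2* in all but KO replicate 1, where they had 29.8 and 30.0 CPM per kb. The activator was therefore the lowest of the 10, at percentile 32.2 of the genes with a length, and the light and heavy chains were the highest. Levels per length rest on the longest transcript, and a shorter form in these cells would raise the value.

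KO replicate 3 was the lowest of the 6 libraries for 8 of the 10 genes, as for 33.4% of all genes tested. WT replicate 2 was the highest for 6 of the 10 and the lowest for 2, as for 31.5% and 29.7% of all genes. These are the libraries with the strongest negative and positive relation to GC content. Without KO replicate 3 there were still 4 genes lower at an unadjusted p-value under 0.05, and without WT replicate 2 also 4. Averaged over the 10 genes, the centred log2 level was 0.11, 0.16 and 0.12 in WT and -0.06, -0.01 and -0.33 in KO replicates 1, 2 and 3. The other genes whose level over the 6 libraries followed this average most closely, among 8858 with a mean of at least 10 CPM, were *Tmem158* (r = 0.999), *Atf5* (0.998), *Pdlim4* (0.997), *Nelfb* (0.997) and *Taf6l* (0.997). Such likeness is common in these libraries, since 1243 of the 8858 genes had r above 0.9.

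Beyond the 10 genes, the pathway was followed by role in lists that leave them out. Of the 16 non-classical class I genes, which present special ligands or regulate innate lymphocytes, 12 were tested and 4 were lower at an unadjusted p-value under 0.05, with none higher, where 13.2% of all genes were lower and 13% higher. The median log2 fold change was -0.22. The 4 were *H2-Q4* (28.0 ± 1.10 normalized counts in WT libraries and 21.1 ± 2.02 in KO, log2 fold change -0.41), *H2-Q6* (4.18 ± 0.604 and 2.47 ± 0.484, -0.76), *H2-M3*, which presents bacterial formylated peptides (11.96 ± 0.739 and 8.71 ± 1.25, -0.46), and *H2-Q7* (10.3 ± 0.890 and 6.52 ± 2.08, -0.66; SD, n = 3 each). After the GC correction these 4 had log2 fold changes of -0.26, -0.58, -0.40 and -0.58, and the list again had 4 genes lower and 0 higher at that limit, where 13.8% of all genes were lower and 12% higher. *H2-Q4*, *H2-Q6* and *H2-Q7* had values that were not whole in 6 of 6 libraries and may share reads with *H2-K1* and *H2-D1*, while *H2-M3* had whole values in all of them. The window of *H2-M3* holds TGACG and ATTGG 20 bases apart and that of *H2-Q7* 19 bases apart. The windows of *H2-Q4* and *H2-Q6*, also lower, did not hold the pair at 18 to 22 bases, nor did those of *H2-T22* and *H2-T23*. *H2-T23*, the ligand of an inhibitory natural killer cell receptor, had 63.4 ± 1.90 in WT and 62.0 ± 4.49 in KO libraries (SD over 3 of each genotype). Its log2FC was -0.032, and 0.13 with the GC correction (unadjusted p = 0.0845, edgeR), where its KO libraries lay above WT.

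The general folding machinery was listed separately. Of the 8 genes of peptide loading, which include the chaperones *Calr* and *Canx* and the trimming peptidase *Erap1*, 1 was higher and 0 lower at an unadjusted p-value under 0.05, a share near the 13% of all genes, with a median of 0.067. The higher gene was *Pdia3*, a thiol oxidoreductase of the loading complex, with 593 ± 19.5 normalized counts in WT libraries and 743 ± 136.8 in KO libraries (SD over 3 of each genotype), which gave a log2 fold change of 0.33, and of 0.24 with the GC correction (unadjusted p = 0.0415 from edgeR). The list's count of higher genes was 0 when any library but KO replicate 1 was left out, and 2 without KO replicate 1. The GC correction turned its median to -0.041 and added 1 lower gene, the peptidase gene *Lnpep* (-0.21). Of the 7 further proteasome genes 2 were higher and 0 lower, against 13% and 13.2% of all genes, with a median of 0.17. The 2 were *Psmb7* (0.45) and *Pomp*, the assembly factor of new proteasomes (0.39). The count of higher genes was 1 without WT replicate 2, KO replicate 2 or KO replicate 3, and 4 with DESeq2 and the GC correction (*Pomp*, *Psme1*, *Psme2* and *Psme3*). With the GC correction *Psmb7* was at 0.21 (unadjusted p = 0.0681 from edgeR) with overlapping libraries, and *Pomp* at 0.39. The proteasome activator genes *Psme1* and *Psme2*, which are inducible by interferon like the immunoproteasome, had log2 fold changes of 0.040 and 0.21 (unadjusted p = 0.695 and 0.0830 from edgeR). The correction brought them to 0.27 and 0.32 (unadjusted p = 0.0846 and 0.0197), so that 3 genes of the list were then higher: *Pomp*, *Psme2* and *Psme3* (0.18).

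Among 11 regulators, 1 was higher and 2 were lower at an unadjusted p-value under 0.05, counts near the 13% and 13.2% of all genes, with a median of -0.13. The lower ones were the NF-κB subunits *Rela* (104 ± 18.1 normalized counts in WT libraries and 76.9 ± 14.2 in KO, SD, n = 3 each, log2 fold change -0.44) and *Nfkb1* (-0.28), and the higher one was *Nfyb*, a Y box factor (0.34). With the GC correction *Rela*, at GC percentile 95.3, had -0.094, *Nfkb1* -0.41 and *Nfyb* 0.13 (unadjusted p = 0.219, 0.0120 and 0.134 from edgeR), and no regulator was higher. Without WT replicate 2 or KO replicate 3 no regulator was lower, and none was higher when any library but KO replicate 1 was left out. The interferon-responsive activators *Irf1* and *Irf2* had log2 fold changes of -0.11 and -0.085 (unadjusted p = 0.434 and 0.422 from edgeR), and 0.0057 and -0.18 with the GC correction (unadjusted p = 0.958 and 0.0534). The factors of the X box, *Rfx5*, *Rfxap* and *Rfxank*, had log2 fold changes of -0.12, -0.22 and -0.20 (unadjusted p from 0.343 to 0.357), and of -0.11, -0.16 and -0.020 with the GC correction.

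**Figure D4:**
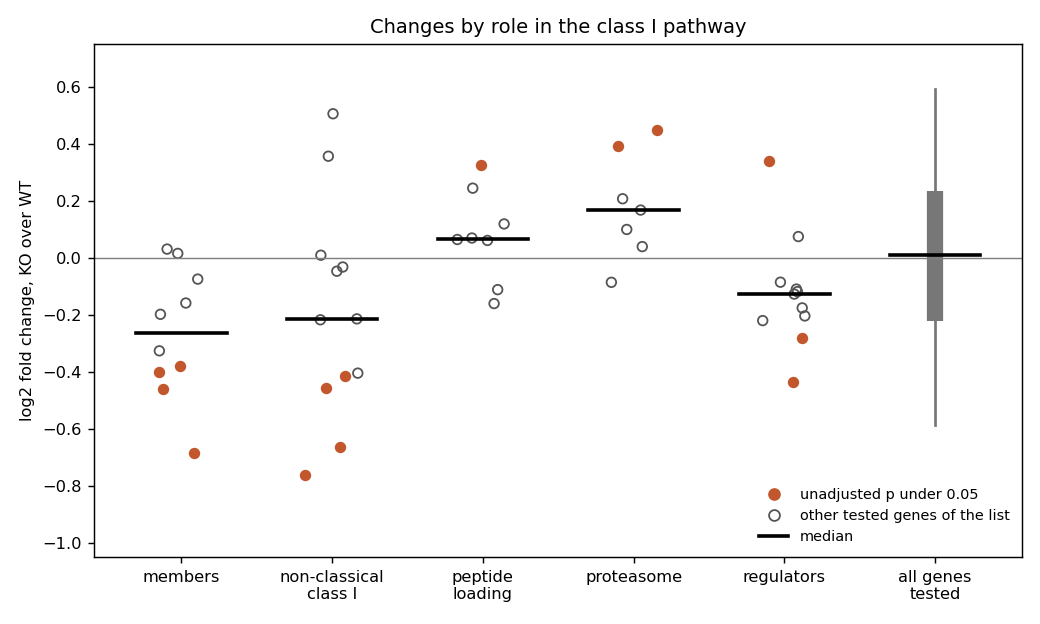
Log2 fold change of KO over WT (edgeR, no GC correction) for the tested genes of each role, with genes at an unadjusted p-value under 0.05 filled and the median of each list as a bar. The last column gives all 13428 genes tested, with the median, the middle 50% as the thick line and the 5th to 95th percentile as the thin line. The 10 genes and the non-classical list have medians of -0.26 and -0.22, and the proteasome list has 0.17. With the GC correction, not drawn, these medians are -0.13, -0.20 and 0.21.

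The deposited annotation gives 2 broader terms. The KEGG term for antigen processing and presentation, which also covers class II and heat shock proteins, had 49 tested genes outside the 10, of which 5 were higher and 5 lower at an unadjusted p-value under 0.05, with a median of 0.069. Both shares are under those of all genes, 13% and 13.2%. The higher ones included the class II chain gene *H2-Aa* (65.8 ± 7.84 normalized counts in WT libraries and 87.3 ± 1.77 in KO, SD, n = 3 each, log2 fold change 0.41, and 0.32 with the GC correction) and the chaperone *Hsp90aa1* (0.44 and 0.26). With the GC correction the counts were 10 higher and 4 lower, the first above and the second below the 12% and 13.8% of all genes. The 10 were *H2-Aa*, *H2-Ab1*, *H2-Eb1*, *H2-DMa*, *H2-DMb1* and *Cd74*, all of the class II pathway, and *Hsp90aa1*, *Pdia3*, *Psme2* and *Psme3*. With a library left out and no correction, 2 to 8 were higher and 3 to 5 lower. The Reactome term for folding, assembly and peptide loading of class I had 21 tested genes outside the 10, with 1 higher (*Sar1b*, 0.30) and 4 lower, which were the non-classical genes already named, against 13% and 13.2% of all genes, and a median of -0.032. With the GC correction *Sar1b* was at 0.11 (unadjusted p = 0.268 from edgeR), so that none was higher and 4 were lower. When any library but KO replicate 1 was left out none was higher, and 4 were without KO replicate 1. No gene of these lists passed an adjusted p-value of 0.01.

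Other cells that could carry class I RNA were looked for by their markers. The 6 dendritic cell markers summed to 8.49 to 12.7 normalized counts in WT libraries and 12.5 to 17.1 in KO. Of 9 T and NK cell markers 4, with *Cd3e* and *Ncr1* among them, had at most 3 counts over all 6 libraries, and the whole list reached at most 7.98, mostly from *Cd4*. The 4 B cell markers summed to 5.14 to 6.31 in WT and 6.35 to 8.04 in KO, 6 stromal and endothelial markers to 19.8 to 27.7 and 18.0 to 22.7, and 3 erythroid markers to at most 0.682. The 7 neutrophil markers summed to 727 to 885 in WT and 1043 to 1295 in KO, mostly from *S100a8* and *S100a9*, while *Ly6g* had a mean of 0.128. They did not move as a group: *S100a8*, *S100a9*, *Retnlg* and *Cxcr2* were higher in KO at an unadjusted p-value under 0.05, and the granule gene *Mpo* was lower (log2FC -0.42, and -0.19 with the GC correction). The osteoclast, neutrophil and B cell sums were higher in every KO library than in any WT library, as were 16.9% of all genes tested. The B cell sums were apart only by 6.31 against 6.35, with 0 of the 4 markers higher at that limit. Of the 8 osteoclast markers 6 were higher at it and 0 lower, against 13% and 13.2% of all genes. The macrophage sums overlapped, with 3 of the 6 markers lower and *Cd68* and *Lyz2* among the other 3. The part of these cell types in the lower values of *Nlrc5*, *H2-K1* and *H2-D1* was not tested.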

How the data were processed

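The labels map each column of the deposited table to a library. The authors deposited estimated counts per gene, not normalized and partly not whole. The submitters' processing notes name fastp, HISAT2, StringTie and RSEM and the build GRCm39, without role or version. Strand use in counting is not given in the sources used here. Means per genotype in the table were not used. Libraries were made from total RNA with a stranded mRNA kit.

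Estimated counts were rounded to whole numbers and analysed in R 4.3.3 with edgeR 4.0.16: filterByExpr, TMM, glmQLFit (legacy = FALSE) and glmQLFTest on genotype, all 6 libraries, with Benjamini-Hochberg adjustment over the 13428 genes tested. Normalized counts are CPM after TMM. Standard errors given with edgeR were derived as the absolute log2FC divided by the square root of the F statistic of the test. The limits were adjusted p under 0.01 and a fold change above 1.3. The p-values measure the spread between these cultures. Libraries of one genotype differed beyond sampling noise (chi-square per degree of freedom from 3.76 to 68.9). Ratios used normalized counts plus 0.5 counts. The GC correction fits a natural spline (5 degrees of freedom) of each library's deviation on GC content of the longest GENCODE M21 transcript, known for 13176 genes (98.1%), and enters as offsets. Alternatives were DESeq2 1.42.0, limma 3.58.1 (voom), the older quasi-likelihood fit, other scalings and filters, a replicate block, and leaving out each library. Fits were tested on simulated counts.

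Members and lists were chosen with earlier results of these data known. Named beside them are the 3 replaced proteasome subunits, the 5 genes most correlated with the mean of the 10, and the up to 4 genes with the smallest p per list and direction, plus genes of a stated role that were added with their values known (*H2-T23*, *Psme1*, *Psme2*, *Psme3*, *Lnpep*, *H2-Ab1*, *H2-Eb1*, *H2-DMa*, *H2-DMb1*, *Cd74*, *Irf1*, *Irf2*, *Rfx5*, *Rfxap* and *Rfxank*). Motifs were chosen after the promoter sequences were read. Promoter sequences are from RefSeq (GRCm38.p6) and exon overlaps from GENCODE M21 (GRCm38). A gene of the regulator list is not reported here.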

Additional observations from a re-analysis of the deposited data

How the results depend on the processing

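*Nlrc5*, *H2-K1* and *H2-D1* stayed lower at an unadjusted p-value under 0.05 in all 17 alternatives, *Tapbp* in 14 and *Tap1* in 4. The exceptions of *Tapbp* were the 3 fits with the GC correction. Past the limits over all genes, 0 were higher and 1 lower, against 60 and 69 with DESeq2, 1 and 2 with the GC correction, 176 and 162 with DESeq2 and that correction, and 0 to 2 lower with a library left out (0 without WT replicate 2, WT replicate 3 or KO replicate 2, and 2 without KO replicate 1). Of the 10 genes, 1 rather than 0 was higher at an unadjusted p-value under 0.05 with the GC correction, in edgeR and in DESeq2. Of the 75 tested genes of the lists together 8 were higher and 7 lower (13% and 13.2% of all genes), against 13 higher with DESeq2 and the GC correction (10.5% of all genes), and with a library left out 3 to 13 higher and 4 to 8 lower (3 higher without WT replicate 2 or KO replicate 2, 13 without KO replicate 1, and 4 lower without WT replicate 2).

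*B2m* changed sign, to -0.00066 with library size alone, -0.20 with the GC correction in edgeR or DESeq2 and -0.22 with the replicate block added, and to between -0.11 and 0.11 with a library left out (-0.11 without WT replicate 2, -0.055 without KO replicate 2). *Tap2* changed to 0.17 in the same 3 corrected fits (unadjusted p = 0.0218, 0.0595 with the block and 0.0437 with DESeq2), and lay between -0.13 and 0.036 with a library left out (0.014 without WT replicate 2, 0.036 without KO replicate 3). *Psmb10* changed to 0.066 or 0.065 in those 3 fits, where *Psmb8* was at 0.13. With a library left out *Psmb8* lay between -0.0096 (without WT replicate 2) and 0.075, with -0.0052 without KO replicate 2. The ratio of *Psmb8* to *Psmb5* lay between -0.047 and 0.24 with a library left out. The causes were not tested.

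The labels do not say whether same-numbered libraries were prepared together. The deviations of same-numbered libraries correlated at -0.215, 0.077 and 0.17, and those of unlike numbers at -0.29 to 0.29, which cannot decide it. With the replicate block 5 rather than 4 of the 10 genes were lower at an unadjusted p-value under 0.05.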
